A study of Rattus norvegicus with 8 samples.

Results

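The nuclei described here are those of the rat nodose ganglion in which at least 2 UMIs (unique molecular identifiers, each counting 1 captured transcript) of Trpa1 were read together with at least 1 UMI of Itm2a or S1pr3. Of 36741 nuclei, 4121 met this rule (11.2%), and they are called members below. The ganglia came from untreated Long Evans rats of 8 weeks, 18 male and 18 female, and no group carried a treatment or a genetic change. Left or right ganglia of 6 rats made up each of 12 pools, 3 for every combination of labelled sex and side, and the nuclei of all pools were read together in 8 sublibraries of a combinatorial barcoding assay. A pool's name gives its labelled sex (M or F), its side (L or R) and its number, as in ML1 and FR3. With 18 rats per sex and 6 per pool, left and right pools of a sex draw on the same rats, and a pool is a mixture whose single animals cannot be told apart.

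Nodose neurons are the vagal sensory neurons that carry signals from the heart, airways and gut to the brainstem. TRPA1 is a cation channel opened by electrophilic irritants such as mustard oil and by products of oxidative stress, and in vagal neurons it is known for irritant reflexes such as cough. S1PR3 is a G protein-coupled receptor for sphingosine-1-phosphate, a lipid released by platelets, endothelium and inflamed tissue, and it acts through the Gq, Gi and G12/13 families of G proteins. ITM2A is a membrane protein with a BRICHOS domain, and SEZ6L, the other marker attached to these cells, is a membrane protein of neurons.

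Pools held 7140286 to 19456287 UMIs, and members contributed 1279406 (ML2) to 4235407 (FR3) of them from 216 (FL2) to 531 (FR3) nuclei. The labelled sex of 2 pools, ML1 and FL1, went against the Y-linked genes Kdm5d and Eif2s3y: their sum was 2.13 CPM (UMI counts scaled to a common total, so that pools of different depth can be compared) in ML1 against 83.4 to 90.7 in the other male-labelled pools, and 87.9 CPM in FL1 against 1.51 to 3.12 in the other female-labelled pools. Sexes are therefore given as labelled, and results are also given without ML1 and FL1. The sublibraries, a technical division, had 10.1% to 12.5% members. As many as 1943 barcode combinations occurred in more than 1 sublibrary, which the barcoding scheme allows, and none was repeated within one.

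Since Trpa1, Itm2a and S1pr3 chose the members, their levels are a description. A member held a median of 5 Trpa1 UMIs, up to 50, and a median of 2 UMIs of Itm2a and S1pr3 together. Both of the latter genes were read in 2052 members (49.8%), Itm2a alone in 1072 (26.0%) and S1pr3 alone in 997 (24.2%). Across pools the members' Trpa1 level ran from 706 (FL1) to 999 CPM (MR3), Itm2a from 221 (MR2) to 348 (FR1) and S1pr3 from 220 (FL1) to 298 (ML2). Many members lay at the edge of the rule: 971 had exactly 2 Trpa1 UMIs and 1314 had exactly 1 UMI of Itm2a and S1pr3 together. Just outside were 1850 nuclei with 1 Trpa1 UMI and Itm2a or S1pr3, and 2559 nuclei with 2 or more Trpa1 UMIs and neither. Members with exactly 2 Trpa1 UMIs had 350 CPM of Trpa1 and 61.5 CPM of Sez6l, against 184 and 35.9 CPM in the nuclei with 1 UMI.

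Depth moved with membership. The median member had 6257 UMIs, a Trpa1 nucleus without Itm2a and S1pr3 had 3673 and the median nucleus of the series 2680. When each nucleus was thinned to 2000 UMIs, leaving out 13068 shallower ones, 1397 of 23673 nuclei met the rule (5.90%).

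The members did not form 1 cluster, and not all lay among neurons. Clusters were made from all nuclei, so their sizes and leading genes are a description. Of the members, 3536 (85.8%) fell in neuron-like clusters, 553 (13.4%) in named non-neuronal clusters and 32 in the others. The largest group, 1185 members (28.8%, from 22.9% to 33.5% per pool), lay in a cluster led by Tafa4, which encodes a secreted chemokine-like peptide, and Crhr2, a receptor for urocortins, with Esr1, Sez6l and Gpc3. Members made up 46.6% of that cluster. A cluster led by Lpar3, a lysophosphatidic acid receptor, and Hunk held 602 members (14.6%), and one led by Edn3, the peptide endothelin 3, and Kcng1, a potassium channel subunit, held 373 (9.05%). Smaller groups lay with Cartpt and Hoxb5 (285), with Itgae, Gpr65 and Chrm2 (247), with Cysltr2 (220), with Chodl and Kcng1 (178), and with the peptide genes Tac1 and Calca (84).

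Sez6l divided these groups. Its level in members was 203 CPM in the Tafa4 and Crhr2 cluster and 125 CPM in the Lpar3 and Hunk cluster, but 8.17 CPM in the Edn3 and Kcng1 cluster, 17.8 CPM in the Chodl and Kcng1 cluster and 16.0 CPM in the Tac1 and Calca cluster. A Sez6l UMI was read in 1491 members (36.2%), in 14.7% of the Trpa1 nuclei without Itm2a and S1pr3, and in 5.86% of neuron-like nuclei without Trpa1. With each nucleus at 2000 UMIs the shares were 17.5% of neuron-like members, 8.20% of neuron-like Trpa1 nuclei without Itm2a and S1pr3, and 4.18% of neuron-like nuclei without Trpa1. The rule therefore spans several neuron-like clusters, with Sez6l levels from above to below the 22.5 CPM of neuron-like nuclei without Trpa1.

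The balance of Itm2a and S1pr3 also differed by cluster. In the Tafa4 and Crhr2 cluster 62.9% of members had both, with 417 CPM of Itm2a and 335 CPM of S1pr3. In the Cysltr2 cluster 57.7% had Itm2a alone and 19.5% both, at 138 CPM of Itm2a and 69.6 CPM of S1pr3. In the Edn3 and Kcng1 cluster S1pr3 was the higher of the pair, at 358 against 217 CPM, and 38.3% of members had it alone. Members of the Cartpt and Hoxb5 cluster were the deepest, with a median of 12598 UMIs, and 76.1% of them had both genes. The satellite glia marker Apoe was at 498.5 CPM in these members and at 594.5 CPM in those of the Chodl and Kcng1 cluster. It ran from 20.2 to 222 CPM in members of the other neuron-like clusters with at least 50 members. The part of glial RNA in these nuclei was not tested. Members of the cluster led by Dsp and F2r were the shallowest shown here, with 1759 UMIs, yet 55.1% had both.

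**Figure D1:**
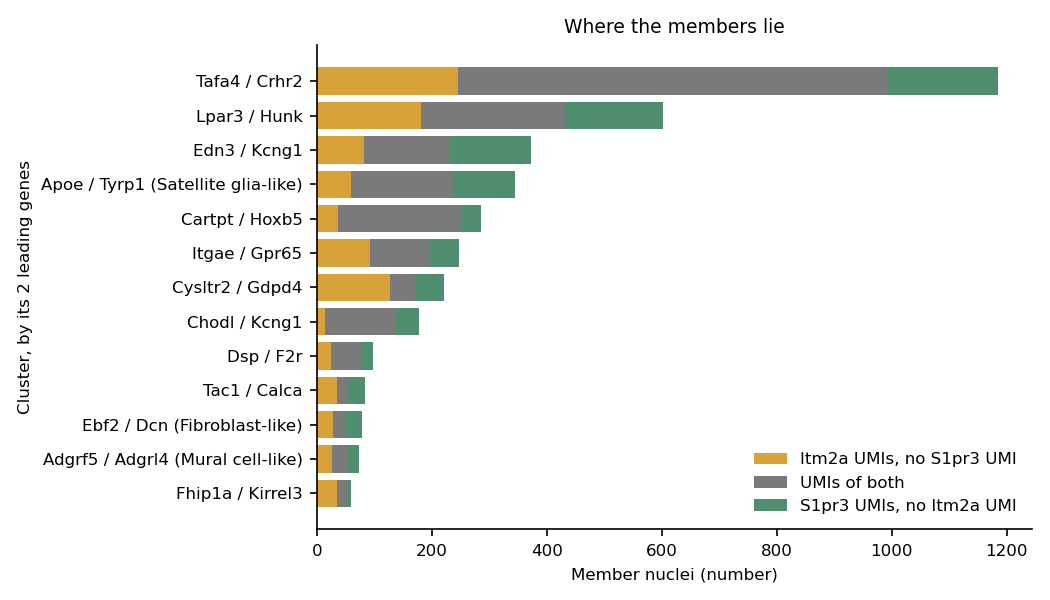
Number of member nuclei (horizontal axis) in each cluster with at least 50 members, named by its 2 leading genes, with colours for members holding UMIs of Itm2a alone, of both genes or of S1pr3 alone. The Tafa4 and Crhr2 cluster holds 1185 members, most of them with both genes, while Itm2a alone is the most frequent state in the Cysltr2 cluster.

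Some members lay in non-neuronal clusters. The satellite glia-like cluster, led by Apoe, held 344 members (8.35% of members, 9.75% of the cluster), the fibroblast-like cluster 79 and the mural cell-like cluster 73. S1pr3 itself was at 155 CPM in all satellite glia-like nuclei, above the 88.8 CPM of all neuron-like nuclei, whereas Trpa1 was at 164 against 355 CPM. Summed over 14 neuron markers, all of them read, members outside neuron-like clusters had 11390 CPM, and neuron-like members 13743 CPM. Neuron markers were also read in the other nuclei of these clusters: over all their nuclei, members included, they summed to 10130 CPM in the satellite glia-like, 10947 CPM in the fibroblast-like and 6548 CPM in the mural cell-like cluster, and 70.5% of all named non-neuronal nuclei had a UMI of the neuronal gene Snap25. The 7 satellite glia markers summed to 1683 CPM in members outside neuron-like clusters and 279 CPM in neuron-like members. In all named non-neuronal clusters together 5.89% of nuclei were members (95% exact binomial interval 5.42% to 6.38%, median 1808 UMIs), against 13.4% of neuron-like nuclei (13.03% to 13.9%, median 3044 UMIs). These intervals cover counting error only. After thinning the shares were 2.93% and 6.80%. Comparisons of members with other neurons were therefore made among neuron-like nuclei.

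Of nuclei with 2 or more Trpa1 UMIs, 61.7% were members, and the 12 pools ranged from 53.3% (FL2) to 70.8% (FR1). As a share of all nuclei, members made up 9.54% to 17.6% in left pools (median 12.1%) and 8.16% to 14.5% in right pools (median 9.60%). Left pools averaged 12.96% ± 2.80 and right pools 10.3% ± 2.27 (SD, n = 6 of each), a difference of -2.65 percentage points with an exact permutation p of 0.025 (two-sided, side labels permuted within labelled sex, 400 relabellings, smallest possible p 0.005). The ranges overlapped, and the difference lost the threshold without ML1 and FL1 (-2.51 points, exact permutation p = 0.09). By labelled sex the share was 13.3% ± 2.86 in the 6 female-labelled pools and 9.96% ± 1.5 in the 6 male-labelled ones (mean ± SD, exact permutation p = 0.005), and the difference of 3.36 points was 3.47 points without ML1 and FL1 (exact permutation p = 0.0167, the smallest those pools allow). This test counts left and right pools of a sex as separate although they draw on the same rats, so its p can be too small. The side difference was -3.14 points in female-labelled and -2.17 points in male-labelled pools, and these did not differ beyond the spread between pools (exact permutation p = 0.74).

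Depth ran the same way as these shares. Median UMIs per nucleus were 3122 ± 489 in female-labelled and 2489 ± 309 in male-labelled pools (SD, n = 6, exact permutation p = 0.015), and 3028 ± 522 on the left against 2583 ± 428 on the right (exact permutation p = 0.05). At 2000 UMIs per nucleus the share was 6.29% ± 1.10 in female-labelled and 5.96% ± 1.07 in male-labelled pools (exact permutation p = 0.63), and 6.49% ± 0.933 on the left against 5.76% ± 1.11 on the right (SD, n = 6, exact permutation p = 0.245). At equal depth neither difference passed the test. Without ML1 and FL1 the side difference at 2000 UMIs was -1.28 points (exact permutation p = 0.09, smallest possible p 0.02) and that by labelled sex 0.43 points (exact permutation p = 0.567). Among members, those with S1pr3 alone were 21.4% ± 2.89 in female-labelled and 27.2% ± 4.75 in male-labelled pools (SD, n = 6, exact permutation p = 0.045), which did not pass without ML1 and FL1 (exact permutation p = 0.0833). A total of 14 measures of members and depth were compared by side and by labelled sex. Adjusted over these 28 exact permutation tests by Benjamini-Hochberg, the p of the share was 0.1 for side and 0.07 for labelled sex, and that of S1pr3 alone by labelled sex was 0.114, so that none of these passed.

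**Figure D2:**
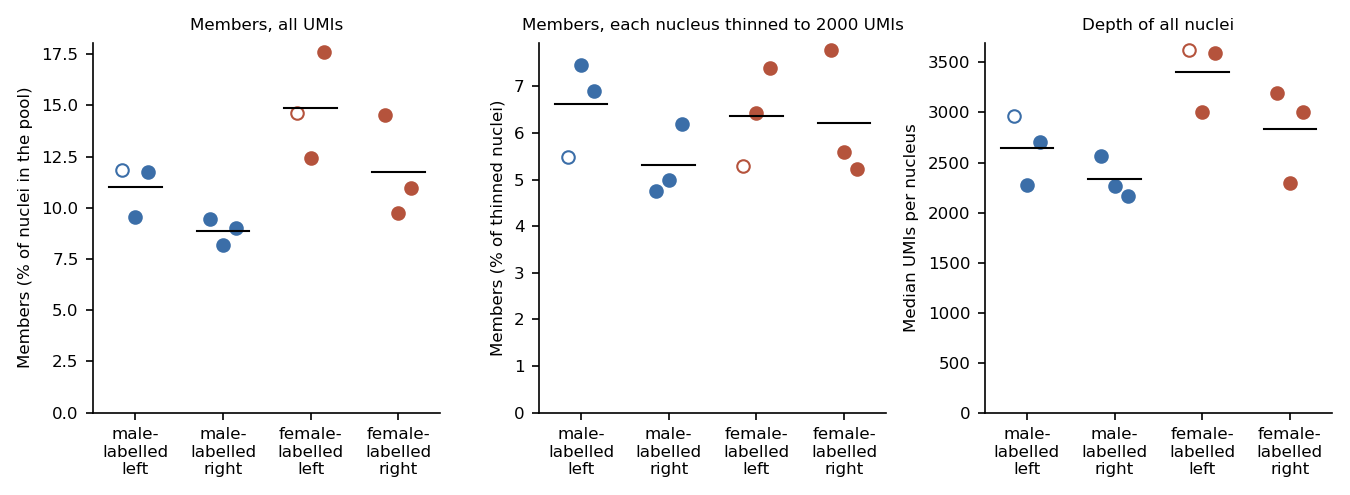
Members as a percentage of nuclei at full depth (first panel) and with each nucleus thinned to 2000 UMIs (second panel), and the median UMIs of all nuclei (last panel), with 1 point per pool and a bar at the mean of 3 pools. Open points are ML1 and FL1, whose Y-linked genes go against their labels. FL3 is highest at full depth (17.6%), and at 2000 UMIs all pools lie between 4.75% and 7.79%.

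Neuron-like members were next compared with the 16701 neuron-like nuclei without a Trpa1 UMI, in the same 12 pools with the pool as a block. Here and below, levels are CPM on normalised library sizes per pool, given as lowest, median and highest over 12 pools, and fold changes are log2 ratios with their SE. Of 11657 genes tested, 7279 were called at an adjusted p under 0.05 (62.4%), 3824 higher (32.8%) and 3455 lower (29.6%) in members. Since members were the deeper nuclei (medians 6260 and 2536 UMIs), the comparison was repeated in nuclei of 4000 to 8000 UMIs, an alternative chosen after seeing the data, where the medians were 5666 and 5098 UMIs. There 3246 of 8364 genes were called, 3042 of them also called at all depths, and 3014 of these in the same direction. Without ML1 and FL1 6794 genes were called at all depths. Against neurons without Trpa1, members had higher levels of Trpv1, of several inflammatory mediator receptors and of sodium channels known from nociceptors. They had lower levels of Piezo2, of the gut hormone receptor genes Glp1r and Cckar and of 11 of 16 potassium and HCN channel genes. Against the Trpa1 nuclei without Itm2a and S1pr3 described below, Trpv1 and Lpar3 were not called higher at all depths, and Scn10a was lower.

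Trpv1, the capsaicin receptor, was at 105, 126 and 135 CPM in members and 53.6, 60.9 and 76.3 CPM in the other neurons, so the groups did not overlap (0.96 ± 0.04, adjusted p = 6.71e-21). Of the 10 TRP channels tested, 4 were higher and 4 lower. Trpv2 was modestly higher (0.48 ± 0.06), and the cold receptor gene Trpm8 was lower at all depths (-0.99 ± 0.15) but not at 4000 to 8000 UMIs (-0.065, adjusted p = 0.829).

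Receptors for inflammatory mediators were mostly higher in members: 9 of 14 were higher and 3 lower, with a median of 0.48 against 0.00 over all genes tested. Lpar3 was at 16.7, 25.4 and 39.9 CPM in members and 4.78, 9.95 and 12.8 CPM in the others (1.57 ± 0.11, adjusted p = 3.10e-15). Ptger4, a prostaglandin E2 receptor, was at 10.2, 18.4 and 25.2 CPM against 3.78, 5.64 and 8.61 CPM (1.53 ± 0.12). Neither pair of ranges overlapped. Htr3a, a subunit of the serotonin-gated 5-HT3 channel, reached 147, 198 and 230 CPM against 69.6, 89.9 and 134 CPM (1.12 ± 0.04), and its partner subunit Htr3b was higher by 0.60 ± 0.04. These levels differed between groups of members. Summed over pools, members had 305 CPM of Htr3a in the Tafa4 and Crhr2 cluster but 38.35 CPM in the Lpar3 and Hunk cluster. Lpar3 was at 51.3 CPM in the latter, 21.5 CPM in the former and 3.08 CPM in the Itgae, Gpr65 and Chrm2 cluster. Ptgir, the prostacyclin receptor, was higher by 0.90 ± 0.08. Ptger3, another prostaglandin E2 receptor, was lower (-0.42 ± 0.05), as was the bradykinin receptor gene Bdkrb2 (-1.05 ± 0.17).

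Sodium channels split by kind. The channels typical of nociceptors were higher: Scn10a, encoding the tetrodotoxin-resistant channel Nav1.8, was at 1412, 1490 and 1649 CPM against 798, 1004 and 1078 CPM (0.65 ± 0.03), Scn9a was higher by 0.62 ± 0.03 and Scn11a by 0.35 ± 0.03. Scn1a, found in fast-firing neurons, was lower, at 37.3, 50.9 and 69.1 CPM against 153, 179 and 224 CPM (-1.81 ± 0.05). Ranges did not overlap for Scn10a, Scn9a and Scn1a, and of the 12 sodium channel genes tested 5 were higher and 7 lower. Potassium and HCN channels were mostly lower, 11 of 16 with 2 higher, and their median was -0.74. Kcnd3, a subunit of A-type potassium channels, was at 32.4, 47.4 and 93.1 CPM against 198, 262 and 330 CPM (-2.29 ± 0.07), and Kcna1 was lower too (-1.46).

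Of receptors for visceral signals 11 of 16 were lower and 4 higher (median -1.39). Piezo2, the stretch-activated channel of mechanosensory neurons, was at 31.6, 67.4 and 95.8 CPM against 282, 445 and 698 CPM (-2.73 ± 0.07, adjusted p = 3.34e-28). Chrm2, a muscarinic receptor, was at 14.5, 22.9 and 37.4 CPM against 86.7, 116 and 135 CPM (-2.35 ± 0.07). The receptor genes for the gut hormones GLP-1 and cholecystokinin were low as well, Glp1r at 4.88, 10.1 and 16.2 CPM against 23.7, 46.6 and 54.5 CPM (-2.08 ± 0.10) and Cckar with a fold change of -1.95. Npy2r, a receptor gene for the gut hormone peptide YY, went the other way (6.69 ± 2.21 against 4.96 ± 1.93 CPM, mean ± SD over 12 pools, 0.36 ± 0.16, adjusted p = 0.0466). Groups did not overlap for Piezo2, Chrm2 and Glp1r. Gabbr1, a GABA-B receptor subunit (0.60 ± 0.03), and the endothelin receptor gene Ednra (0.64 ± 0.06) were higher. Gpr65, a proton-sensing receptor, was lower at all depths (-0.78) and at 4000 to 8000 UMIs (-1.78).

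These list counts were also taken at 4000 to 8000 UMIs. There 6 of 11 receptors for inflammatory mediators were higher and 1 lower, 8 of 12 receptors for visceral signals were lower and 2 higher, 5 of 12 sodium channels were higher and 6 lower, and 10 of 14 potassium and HCN channels were lower and 1 higher. Over all 8364 genes tested at that depth, 1683 were higher and 1563 lower. Within the Tafa4 and Crhr2 cluster alone, where fewer list genes could be tested, all 4 receptors for visceral signals tested were higher (median 0.78), 2 of 5 receptors for inflammatory mediators were higher and 2 lower, 6 of 8 sodium channels were higher and 1 lower, and 1 of 5 potassium and HCN channels was higher and 1 lower. Over all genes 1088 of 4329 were higher and 1001 lower in that cluster. Members were the deeper nuclei there too (medians 5966 and 2892 UMIs), and the cluster was not compared at matched depth. Satellite glia markers moved with membership as well: they summed to 184 to 481 CPM per pool in members and 130 to 286 CPM in neurons without Trpa1, and 5 of 6 were higher in members at all depths and 0 of 5 at 4000 to 8000 UMIs. The part of glial RNA in the results at all depths was not tested.

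Among genes chosen by size of change, Dchs1, a large protocadherin, was at 22.8, 36.9 and 48.9 CPM in members and 4.54, 6.94 and 10.4 CPM in the others (2.33 ± 0.09). Tafa4 (2.02 ± 0.07), Kcng1 (2.01 ± 0.08) and Crhr2 (1.88 ± 0.05) followed, and these are leading genes of clusters rich in members. Stom, a membrane protein that modulates ion channels, was higher by 1.86 ± 0.07, the monoamine transporter gene Slc29a4 by 1.85 ± 0.07, and Ifit2, Shc3, Gpc3 and Wnt2b by 1.63 to 1.76. The genes with the largest decrease were Kcnj6, an inward rectifier potassium channel (-3.13 ± 0.11, from 1.48, 3.02 and 8.15 CPM against 19.2, 31.7 and 55.3 CPM), Nxph1 (-2.93), Ndst4 (-2.84), Xylt1, which starts proteoglycan sugar chains (-2.79), Dok5, Syndig1, Tafa1, Baiap2l1 and Cntn3 (-2.68 to -2.50). All had the same direction in 12 of 12 pools, which was a condition for naming them and adds no support. Within the Tafa4 and Crhr2 cluster alone, Tafa4 was lower in members (-0.33, adjusted p = 9.04e-05) and Gpc3 did not pass (-0.055), while Dchs1 (0.93), Crhr2 (0.83) and Stom (1.55) were still higher. Trpv1 (0.19, adjusted p = 0.198) and Htr3b (0.16, adjusted p = 0.107) did not pass in that cluster.

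Peptide and neurotrophic genes followed in part. Of 5 peptide genes tested 4 were higher, among them Scg2, a granin of secretory granules (0.99 ± 0.04), Cartpt (1.25 ± 0.06 at all depths, 0.71 at 4000 to 8000 UMIs) and Adcyap1, encoding PACAP (0.61 ± 0.08). Ngfr, the low-affinity neurotrophin receptor, was at 1642, 1758 and 2181 CPM against 575, 735 and 937 CPM (1.29 ± 0.03), while Gfra2, the coreceptor for neurturin, was lower (-0.90 ± 0.05 at all depths, -1.36 at 4000 to 8000 UMIs). Among transcription factors of sensory identity 7 of 10 were higher and 3 lower, against 32.8% higher and 29.6% lower over all genes. Hoxb5 (1.05 ± 0.06, and 0.42 at 4000 to 8000 UMIs) and Etv1 (0.66 ± 0.03) were higher, and Drgx (-2.02 ± 0.14) and Prdm12 (-1.18 ± 0.16) lower. At 4000 to 8000 UMIs 3 of 5 of these factors were higher and 1 lower, and Drgx and Prdm12 could not be tested. These last are among the jugular neuron markers, of which 1 of 4 tested was higher and 2 lower, Runx1 being the higher one (0.45 ± 0.04). At 4000 to 8000 UMIs 1 of 2 was higher and 1 lower.

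The sphingosine-1-phosphate pathway beyond S1pr3 changed little in size. Of 13 genes tested 7 were higher and 3 lower, with a median of 0.11. Within the Tafa4 and Crhr2 cluster 0 of 8 were higher and 3 lower (median -0.086). Gna13, a G protein subunit downstream of S1P receptors, was at 83.8, 94.4 and 115 CPM against 61.9, 74.8 and 84.6 CPM (0.39 ± 0.04), and Gna12 was higher by 0.17, and neither passed within that cluster (-0.073 and 0.081). Sphk2, one of the kinases that make the lipid, was higher by 0.55 ± 0.09 at all depths but did not pass at 4000 to 8000 UMIs (0.20), and Sgpp2, a phosphatase that removes it, was lower (-0.51 ± 0.04). Of the BRICHOS relatives of Itm2a, Itm2b was higher by 0.48 ± 0.04 and Itm2c by 0.58 ± 0.05, and at 4000 to 8000 UMIs Itm2b did not pass (0.10) while Itm2c did (0.25). In the Tafa4 and Crhr2 cluster Itm2b did not pass either (0.12, adjusted p = 0.423).

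The narrower comparison set the 3536 neuron-like members against 2316 neuron-like Trpa1 nuclei without Itm2a and S1pr3. Trpa1 itself overlapped between the classes, at 774, 938 and 1092 CPM in members and 721, 958 and 1162 CPM in the others. Sez6l was at 90.0, 99.3 and 139 CPM against 28.1, 51.5 and 74.9 CPM, given as a description since it belongs to the label. Of 9552 genes 3858 were called (40.4%), 1866 higher (19.5%) and 1992 lower (20.9%). At 4000 to 8000 UMIs, where medians were 5666 and 5336 UMIs, 1433 of 6488 genes were called, 683 higher and 750 lower. Of these, 1333 were also called at all depths, 1330 of them in the same direction. Without ML1 and FL1 3325 genes were called at all depths.

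Genes of peptidergic neurons were among the largest decreases in members, although of 5 peptide genes tested 2 were higher and 2 lower. Tac1, encoding substance P, was at 2.15, 18.1 and 46.0 CPM in members and 29.1, 115 and 301 CPM in the others (-2.65 ± 0.12, adjusted p = 5.90e-18, and -3.08 at 4000 to 8000 UMIs). Calca, encoding CGRP, was at 3.59, 10.9 and 32.9 CPM against 9.69, 65.5 and 246 CPM (-2.75 ± 0.12). Both were lower in members in 12 of 12 pools, which was a condition for naming them, and the ranges over pools overlapped. Gfra3, the artemin coreceptor of peptidergic nociceptors (-2.85 ± 0.15), was lower too, with Mdfic2 (-3.12), the nicotinic subunit gene Chrnb3 (-3.05), Hs6st2, Sytl3, St6galnac5, Xdh and Cpxm2 (-2.91 to -2.55). Of the genes named in this paragraph as lower, only Tac1 and Xdh (-3.00) could be tested at 4000 to 8000 UMIs. The Tac1 and Calca cluster itself had 6.97% members at a Trpa1 level of 896 CPM, where Itm2a was at 22.6 and S1pr3 at 29.4 CPM.

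Receptors differed between the 2 classes of Trpa1 nuclei as well. Htr3a was at 146, 195 and 228 CPM in members and 64.2, 103 and 149 CPM in the others (0.96 ± 0.06), Htr3b was higher by 0.62 ± 0.07 and Ptger4 by 0.81 ± 0.16. Ptgir was higher by 0.60 ± 0.12 but did not pass at 4000 to 8000 UMIs (0.51, adjusted p = 0.055). Cysltr2, a leukotriene receptor gene, was lower (-0.72 ± 0.09). Of 11 receptors for inflammatory mediators 5 were higher (Htr3a, Htr3b, Ptger4, Ptgir and Lpar1) and 2 lower (median 0.11 against -0.01 over all genes). Lpar3 was not among the higher ones. Within the Tafa4 and Crhr2 cluster Htr3b did not pass (0.13, adjusted p = 0.223). P2rx2, an ATP-gated channel typical of nodose neurons, was at 83.3, 110 and 150 CPM against 46.8, 67.8 and 90.9 CPM (0.74 ± 0.07). Of 4 nodose neuron markers tested, P2rx2 among them, 2 were higher and 0 lower. At 4000 to 8000 UMIs 1 of 2 was higher, P2rx2 (0.66), and 1 lower. Piezo2 (-1.25 ± 0.12) and Chrm2 (-1.15 ± 0.13, and -1.94 at 4000 to 8000 UMIs) were lower. Trpm3 was lower (-0.38). At all depths 5 of 10 TRP channels were lower and 1 higher, Trpc4, so Trpv1 was not called higher there. Of 8 tested at 4000 to 8000 UMIs 2 were lower and 2 higher.

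Among sodium channels 3 of 12 were higher, including Scn9a (0.10 ± 0.03), and 7 lower, including Scn11a (-0.80 ± 0.06) and Scn1a (-0.70 ± 0.10). Scn10a was also among the lower ones, at 1393, 1480 and 1625 CPM in members against 1441, 1651 and 2005 CPM. Of 9 sodium channels tested at 4000 to 8000 UMIs 3 were higher and 3 lower, and 4 of 8 were higher and 1 lower in the Tafa4 and Crhr2 cluster. Over all genes tested, 683 of 6488 were higher and 750 lower at that depth. In that cluster 890 of 4206 were higher and 996 lower. Of 14 potassium and HCN channels 9 were lower and 4 higher, including Kcnd3 (-1.57 ± 0.09) and Kcna4 (-1.28 ± 0.09). Hoxb5 (1.05 ± 0.11) and Etv1 (0.60 ± 0.06) were higher and Runx1, a factor of non-peptidergic and itch neurons, was lower (-0.37 ± 0.06). Ngfr was higher by 0.61 ± 0.05, and Ret, the receptor for GDNF ligands, was lower (-0.67 ± 0.04) at 355, 414 and 517 CPM against 528, 664 and 798 CPM, without overlap. Within the Tafa4 and Crhr2 cluster alone the direction turned for Ret (0.85, adjusted p = 4.79e-08) and Scn11a (0.53, adjusted p = 1.14e-04). Their lower level in members was thus found across clusters and not inside this one. Depth differed inside it (medians 5966 and 3627 UMIs), and the cluster was not compared at matched depth. Rbfox3, the neuronal marker NeuN, was lower in members (-1.26 ± 0.07), as were Syt1 (-0.48 ± 0.04), Elavl3 (-0.18 ± 0.04) and Elavl4 (-0.15 ± 0.04), while 9 of the 14 neuron markers were higher. Of 13 genes of the sphingosine-1-phosphate pathway 3 were higher and 4 lower (median 0.03), with Rock2 at 0.21 (0.038 and not called in the Tafa4 and Crhr2 cluster) and Sgpp1 at 0.48 among the former and Gnaq at -0.29 among the latter.

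The genes highest in members by size included Cartpt, at 49.8, 84.4 and 121 CPM against 13.7, 26.9 and 49.2 CPM (1.71 ± 0.10), Wnt2b (1.20 ± 0.11), C1ql3, a secreted synaptic organiser (1.18 ± 0.11), Tmed8 (1.05 ± 0.07), Ifit2 (1.35 ± 0.17) and Cst3 (1.24 ± 0.12). They also included genes that satellite glia express strongly, namely Apoe (1.30 ± 0.07), Kctd12 (1.28 ± 0.11) and S100b (1.11 ± 0.07). All 6 satellite glia markers tested were higher in members, and the 7 markers of that list, none at 0, summed to 184 to 481 CPM per pool in members and 64.8 to 187 CPM in the other class. At 4000 to 8000 UMIs Apoe was higher by 0.79, Kctd12 by 0.84 and S100b by 0.99. The part of glial RNA in these differences was not tested.

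**Figure D3:**
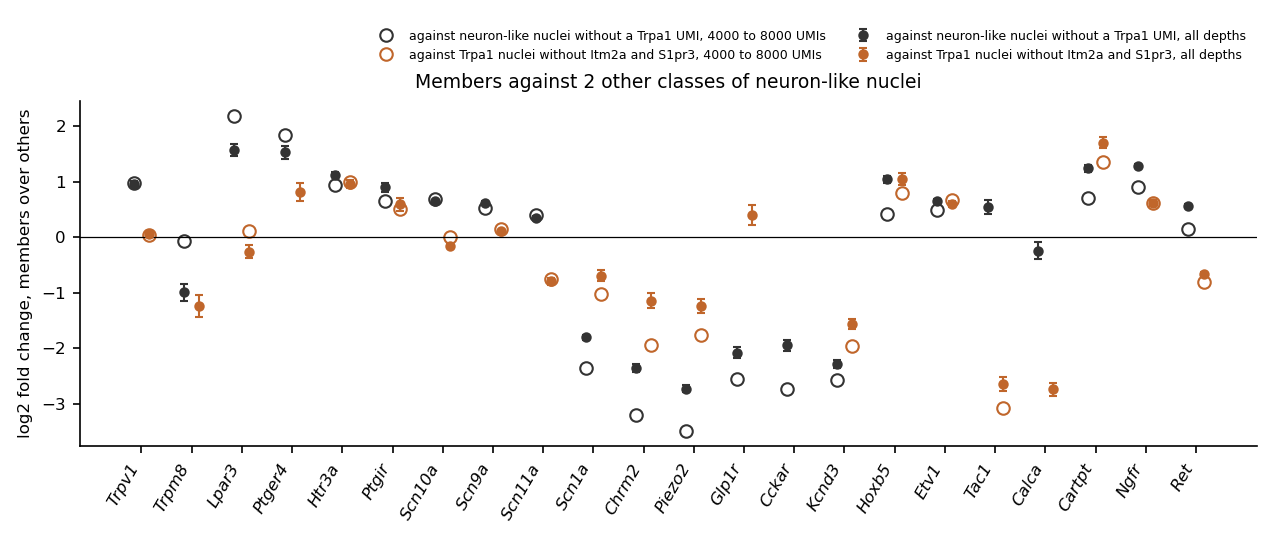
log2 fold change of genes of the receptor, channel, transcription factor and peptide lists in members over neuron-like nuclei without a Trpa1 UMI (black) and over Trpa1 nuclei without Itm2a and S1pr3 (orange), with bars of 1 SE at all depths and open circles for nuclei of 4000 to 8000 UMIs where the gene could be tested. Members are the first class in both comparisons. Piezo2, Chrm2 and Kcnd3 lie below 0 against both classes, and Htr3a, Hoxb5, Etv1 and Ngfr above 0.

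Among themselves, members with Itm2a alone (930 neuron-like nuclei) and with S1pr3 alone (819) were compared in the same way, at medians of 5106 and 4614 UMIs. Of 6118 genes 462 were called (7.55%), 178 higher (2.91%) and 284 lower (4.64%) with Itm2a alone. At 4000 to 8000 UMIs, with 398 and 357 nuclei, 41 genes were called, 39 of them also called at all depths. Within the Tafa4 and Crhr2 cluster, with 246 and 194 nuclei, 1 gene was called, and it was not among the 462. Without ML1 and FL1 336 genes were called. Cysltr2 was at 47.8, 123 and 184 CPM with Itm2a alone and 26.1, 56.3 and 75.1 CPM with S1pr3 alone (1.15 ± 0.13, higher in 11 of 12 pools). Sez6, the paralogue of Sez6l, was at 19.3, 40.1 and 70.3 CPM against 10.8, 19.1 and 28.7 CPM (1.15 ± 0.17). It was higher in 12 of 12 pools, which was a condition for naming it. Cysltr2 and Sez6 could not be tested at 4000 to 8000 UMIs, nor Sez6 without ML1 and FL1. Greb1l (0.55 ± 0.08) and Col6a5, a collagen gene (0.53 ± 0.05), were higher and also passed at 4000 to 8000 UMIs. Hunk (0.75), Parm1 (0.65), Xpr1 (0.56), Trabd2b (0.47), the cannabinoid receptor gene Cnr1 (0.47) and Tmem132c (0.47) were higher at all depths, and at 4000 to 8000 UMIs they lay at 0.23 to 0.40 and did not pass. Nab1 was higher by 0.49, did not pass without ML1 and FL1 (0.46) and could not be tested at 4000 to 8000 UMIs. Cysltr2 and Col6a5 are leading genes of the Cysltr2 cluster, and Hunk and Greb1l of the Lpar3 and Hunk cluster.

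With S1pr3 alone, Pcp4, a calmodulin regulator, was at 23.7, 57.9 and 112 CPM, and with Itm2a alone at 7.80, 17.2 and 32.5 CPM (-1.70 ± 0.17, adjusted p = 9.65e-09). Pcp4 is a leading gene of the Chodl and Kcng1 cluster and could not be tested at 4000 to 8000 UMIs. Prkcb, a protein kinase C, was at 116, 183 and 280 CPM against 31.2, 72.2 and 173 CPM (-1.24 ± 0.16, and -1.03 at 4000 to 8000 UMIs). Sorcs2, Myh14, Adgrg6, Edil3, Insc, Rgs20 and Ikzf2 lay between -1.37 and -0.99. They were lower with Itm2a alone in 12 of 12 pools, which was a condition for naming them and adds no support. At 4000 to 8000 UMIs these genes could not be tested. Fbln2 (-1.46 ± 0.17), a leading gene of the satellite glia-like cluster, was among them, and Apoe was at 35.1, 78.2 and 155 CPM with Itm2a alone and 84.8, 196 and 417 CPM with S1pr3 alone (-1.40 ± 0.15). The 2 satellite glia markers tested were lower with Itm2a alone, as were 2 of 3 fibroblast markers, Col1a2 (-0.73 ± 0.16) and Col3a1 (-0.70 ± 0.17), and 1 of 3 Schwann cell markers. The part of RNA from these cells was not tested. None of the 8 tested genes of the sphingosine-1-phosphate pathway was called.

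**Figure D4:**
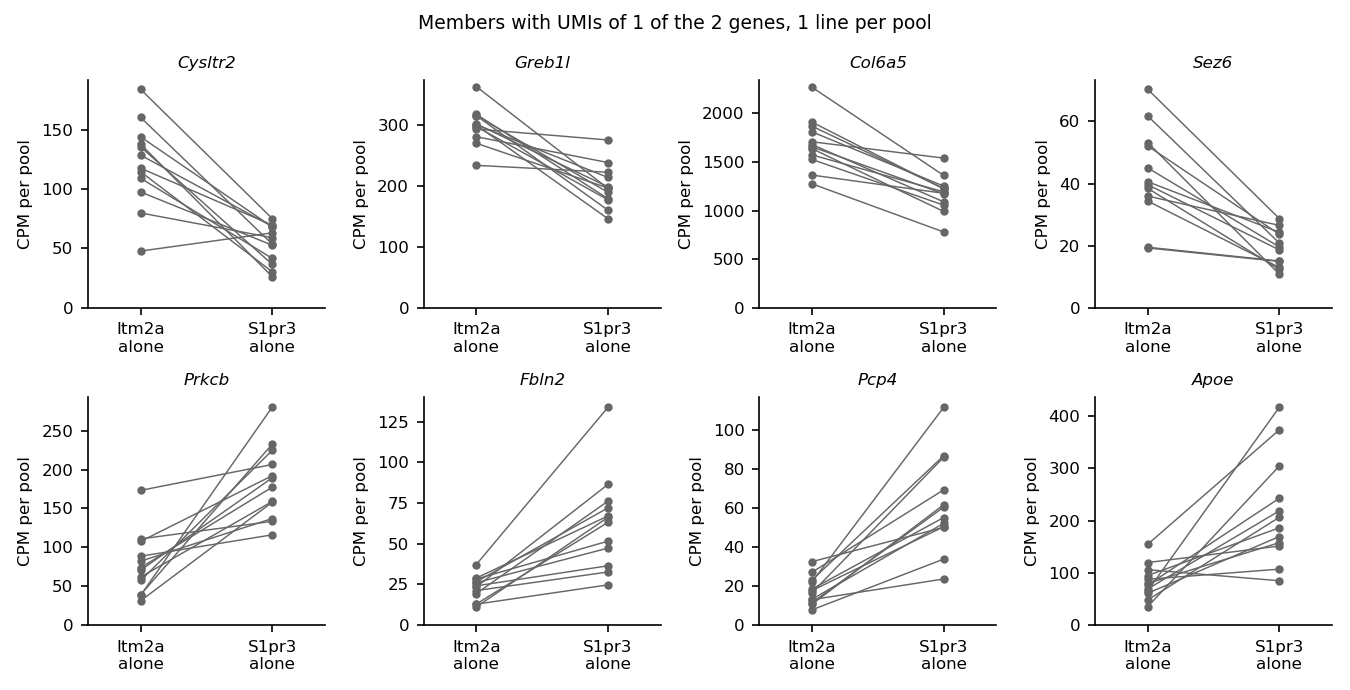
Level (CPM) of 8 genes in neuron-like members with Itm2a alone and with S1pr3 alone, with 1 line for each of 12 pools. Cysltr2, Greb1l, Col6a5 and Sez6 are mostly higher on the side of Itm2a alone, and Prkcb, Fbln2, Pcp4 and Apoe on the side of S1pr3 alone.

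Left and right members differed in few genes. Of 11916 genes tested over all members 10 were called (0.0839%), 3 higher (0.0252%) and 7 lower (0.0587%) on the right. Shisa9, Slc29a1, Adora1, Gfra2 and Rasgef1b were named because every right pool also lay below every left pool. That is a description and adds no support to the call. Shisa9, an auxiliary protein of AMPA receptors, was at 46.1, 49.9 and 64.1 CPM in left pools and 25.7, 32.0 and 40.1 CPM in right pools (-0.66 ± 0.11, adjusted p = 0.0112). Slc29a1, an adenosine transporter, was at 81.7, 92.1 and 112 CPM against 66.2, 71.4 and 72.5 CPM (-0.45 ± 0.07), and Adora1, the adenosine A1 receptor, at 67.0, 71.8 and 83.0 CPM against 44.0, 49.1 and 64.6 CPM (-0.53 ± 0.09). Gfra2 was at 45.1, 54.0 and 64.1 CPM against 36.3, 37.8 and 39.8 CPM (-0.49 ± 0.09), and Rasgef1b was lower as well (-0.38). The other called genes overlapped between sides: Opcml (-0.82) and Crhr2 (-0.42) were lower, and Tafa1 (1.48), Sorcs1 (0.50) and Crtac1 (0.34) higher on the right. Of the genes in the functional lists only Gfra2 was called by side.

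Without ML1 and FL1 3 genes were called by side, 1 of them among these 10, Opcml (-0.85, adjusted p = 0.0334), while the fold changes of all 10 kept their direction. At 4000 to 8000 UMIs 14 of 8572 genes were called, 14 of them higher on the right and 0 lower. Of the 10 genes 9 could be tested there, all but Tafa1, and only Sorcs1 passed (0.69, adjusted p = 6.29e-04). Among neuron-like members alone edgeR called 9 of 11374 genes by side, 8 of them among the 10. Gfra2 (-0.53, adjusted p = 0.0582) and Crhr2 (-0.40, adjusted p = 0.0506) did not pass there. Skeletal muscle markers reached 1257 CPM in the members of FR2, against 100 to 276 CPM in left pools, and satellite glia markers had medians of 452 CPM on the left and 525.8 CPM on the right. Their part in the side differences was not tested.

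**Figure D5:**
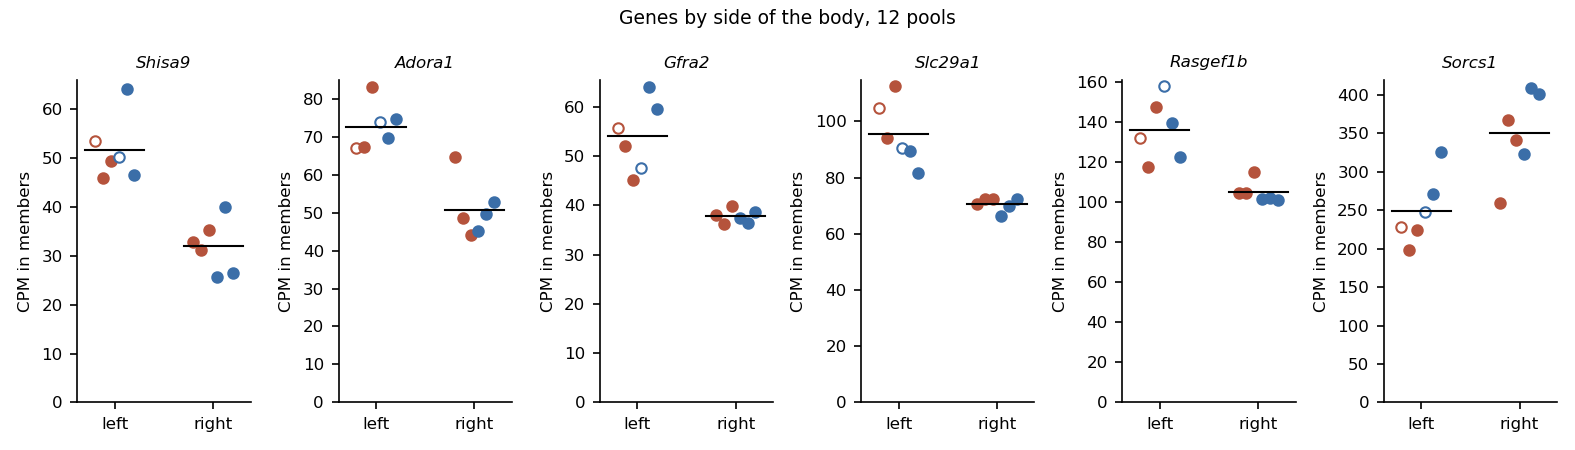
Level (CPM) in members of 6 genes called by side, with 1 point per pool, colours for the labelled sex (blue male, red female), open points for ML1 and FL1 and bars at the mean of 6 pools. For Shisa9, Adora1, Gfra2, Slc29a1 and Rasgef1b every right pool lies below every left pool, and Sorcs1 is higher on the right with overlap.

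By labelled sex no gene of 11916 was called (0%), with 1369 genes at an unadjusted p under 0.05 in edgeR, whereas DESeq2 called 43. The genes with the smallest p were St18, a zinc finger factor, at 29.1, 37.4 and 47.4 CPM in female-labelled and 22.1, 25.5 and 27.0 CPM in male-labelled pools (0.58 ± 0.11, adjusted p = 0.0947), and Tmem176b, at 211, 236 and 266 CPM against 157, 188 and 208 CPM (0.35 ± 0.07, adjusted p = 0.106). The groups did not overlap for either, which is a description, since both genes were chosen by their small p. Without ML1 and FL1 119 genes were called, 33 of them higher in female-labelled pools, led by the Y-linked genes Kdm5d (-5.25) and Eif2s3y (-5.83). St18 (0.62, adjusted p = 0.0125) and Tmem176b (0.36, adjusted p = 0.0247) passed there, and so did the X-linked gene Kdm6a (0.60). The count also rose when single pools were left out, to 97 when ML1 was dropped, 158 for MR1, 27 for FL1 and 52 for FR2. In members of female-labelled and male-labelled pools fibroblast markers had medians of 134 and 209.9 CPM, and satellite glia markers of 452 and 522 CPM. The fibroblast marker Col1a1 (-0.83) and the satellite glia marker Erbb3 (-0.67) were among the genes lower in female-labelled pools without ML1 and FL1, and the part of these cells' RNA was not tested.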

How the data were processed

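The members and gene lists were chosen with earlier results of these data known. The counts are the whole-number UMI counts per gene and nucleus that the authors deposited, with a table that gives each nucleus its pool. Per the submitters' processing notes, R 4.3.2, Seurat 4.1.3 and the rat genome build mRatBN7.2 were used, and for the aligner, annotation and barcode filter nothing was given in the sources used here. Sums of the deposited counts equalled the deposited UMI and gene totals in all 36741 nuclei, with at least 779 UMIs and 273 genes each. No nucleus was removed and no doublet caller was run.

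Members were found from raw UMIs. Nuclei were clustered in Python 3.11.15 (3000 variable genes, 30 principal components, 20 neighbours, leidenalg 0.10.2 at resolution 1), which gave 31 clusters, named where at least 3 listed markers were enriched. Shares were compared over pools with exact permutation tests. Counts summed per pool and class were tested with edgeR 4.0.16 (R 4.3.3), by its quasi-likelihood test with Benjamini-Hochberg adjustment over all genes passing its expression filter at a threshold of 0.05. Side and labelled sex were fitted together over 12 pools, and classes with the pool as a block. Trpa1, Itm2a, S1pr3 and Sez6l were left out of the tests between classes, but not of those by side and labelled sex. The script was tested on simulated data.

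The p-values measure the spread between pools, each a mixture of 6 rats, and left and right pools share rats, which the main tests do not take into account. The comparisons with the 2 other classes share the members. Genes named by size were, per comparison and direction, up to 10 called genes with the largest fold change, at least 20 CPM in 1 group and the same direction in every pool, or groups that did not overlap. Genes of the lists were named beside them, and the genes by side whose pools overlapped, Kdm5d, Eif2s3y and Kdm6a were named after their values were seen. Some genes of the lists are counted in them and not reported here by name. Alternatives were DESeq2 1.42.0, other normalisation and filters, thinning, single pools left out and other rule thresholds. The largest member cluster and nuclei of 4000 to 8000 UMIs were alternatives chosen after seeing the data.

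Same-numbered left and right pools were checked for pairing over 6858 genes: the correlation of their deviations ran from -0.105 to 0.194, and the labels do not say that numbers pair pools, so no block for the number was used.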

Additional observations from a re-analysis of the deposited data

Results flagged for a closer look

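The level of Itm2a in members was 347.8 CPM in FR1, above the other 5 female-labelled pools, of which the nearest had 280.6 CPM. That gap was 0.696 of the range of the 6 pools, past the limit of 0.625 for a single distant value among 6. It was the 1 such case in 48 groups checked, and chance gives about 1 in 20. Itm2a is part of the rule that chose the members, and this value is a description.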

How the results depend on the processing

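The difference in the share of Trpa1 Itm2a/S1pr3 nuclei by side fell below the threshold of the exact permutation test among neuron-like nuclei (-2.50 points), after thinning (-0.73), with Trpa1 at 1 or more UMIs (-2.44), with Itm2a and S1pr3 summing to 2 or more (-1.86) and without ML1 and FL1 (-2.51), and turned to 0.913 points as a share of Trpa1 nuclei. Leaving out single pools gave -3.5 to -1.73 points, with p above the threshold without FL1, FL2, FL3, MR1, MR2 or MR3. For the share of Trpa1 Itm2a/S1pr3 nuclei by labelled sex the difference was 6.66 points as a share of Trpa1 nuclei and 0.327 after thinning, both short of the threshold, and 2.50 to 4.07 with single pools left out (3.00 without MR2, exact permutation p = 0.055).

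Called genes by side (10) became 19 with DESeq2, 130 with no filter on low counts, 3 without ML1 and FL1, 4 without the deepest nuclei, and 4 to 20 with single pools left out: 5 without ML2, FL1 or FL3, 6 without MR2, 4 without MR3 or FR2, 20 without FR1. With a replicate block for the pool number 16 were called, all 10 among them; the numbers are not known to pair the pools. By labelled sex (0) the counts were 43 with DESeq2, 328 with no filter, 119 without ML1 and FL1, and 0 to 158 with single pools left out. Against Trpa1 nuclei without Itm2a and S1pr3 (3858) they were 1863 thinned, 1886 in the largest member cluster and 1433 at 4000 to 8000 UMIs (3382 to 3755 with single pools left out). Against neurons without Trpa1 (7279) they were 4372, 2089 and 3246 (6925 to 7211). Between Itm2a alone and S1pr3 alone (462) they were 266 with DESeq2, 77 thinned, 165 without the deepest nuclei, 1 in the largest cluster and 41 at 4000 to 8000 UMIs (334 to 488). Most of these settings leave fewer nuclei and genes, and the cause of these changes was not tested.

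Directions turned in the largest member cluster for Ret (0.85) and Scn11a (0.53) against Trpa1 nuclei, for Col6a5 (-0.039) and Ret (-0.43) between Itm2a alone and S1pr3 alone, and for Gna13 (-0.073), Gpc3 (-0.055) and Tafa4 (-0.33) against neurons without Trpa1. At 4000 to 8000 UMIs P2rx2 turned to -0.025 in the last comparison. Depth limits the rule itself: 1 missed UMI moves a nucleus at either edge out of the members.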
